A study of Mus musculus with 9 samples.

Results

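The tumour necrosis factor (TNF) family genes described here are 3 ligands, Tnf, Ltb and Tnfsf9, and 3 receptors, Tnfrsf1a, Tnfrsf1b and Fas. They were taken by symbol from the gene column of the 9 expression tables, where all 6 were present among 12474 rows. Poly(A) RNA was sequenced from RAW264.7, an established mouse macrophage-like line labelled wild type, with 3 libraries in each of 3 groups. Mock was the reference group, labelled only with that word. M1 cells were polarized in medium with inactivated serum, 100 ng/ml lipopolysaccharide (LPS, a bacterial cell wall component) and 50 ng/ml mouse interferon gamma. I cells received the same 2 agents, and 20 mM potassium iodide was present during polarization. The series compares the 3 groups to learn what iodide ions add to M1 polarization. The time of polarization is not given in the labels, and no group received another salt, so the effects of iodide, of potassium and of osmolarity cannot be told apart. Separate cultures are not mentioned in the labels, so the p-values refer to the spread among the sequenced libraries and that spread may be technical.

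TNF is made as a membrane protein, is released by the protease ADAM17 and binds 2 receptors. TNF receptor 1 (Tnfrsf1a) is made by most cells, carries a death domain and starts both NF-kB signalling and cell death, while TNF receptor 2 (Tnfrsf1b) is found mainly on immune and endothelial cells and signals through TRAF adaptors. In macrophages Tnf is one of the classic early genes induced through Toll-like receptor 4, the receptor for LPS. Lymphotoxin beta (Ltb) forms a membrane complex with lymphotoxin alpha (Lta) that acts on the lymphotoxin beta receptor, and Tnfsf9 is the ligand of the costimulatory receptor Tnfrsf9. Fas is the receptor that starts the caspase cascade when bound by Fas ligand.

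Levels are given in FPKM, fragments scaled by exon length and library total. Such values allow a rough comparison between genes, and small differences between libraries depend on the scaling, as described below. The library totals recovered from these values were between 17431069 and 25470730 fragments, and 1 fragment on a gene of 1 kb was worth 0.039 to 0.057 FPKM. Within groups, Pearson r across genes was 0.9968 to 0.9973 on the log2 scale, and no library stood apart. All 8 macrophage markers looked for were present, with a summed level of 4927 to 5020 FPKM in the Mock libraries, 3732 to 3820 in those of M1 and 2864 to 2953 in those of I. The sum was weighted towards the abundant Lyz2, whose group mean went from 3155 (Mock) to 1138 (M1) and 674.9 FPKM (I). Taken singly, 5 of the 8 markers were called higher, as defined below, and 3 lower for M1 against Mock. For I against M1, 1 was called higher, 6 lower and 1 was not called. Of the T cell markers only Lck was present, at 3.29 to 5.26 FPKM, and of the B cell markers only Pax5, at no more than 0.0533 FPKM. The dendritic cell list had 4 of 6 genes, summing to 9.73 to 11.2 FPKM in the Mock libraries, 24.7 to 25.2 in those of M1 and 50.1 to 53.9 in those of I, nearly all from Cd83. The part of these marker levels in the results was not tested. In bulk RNA, fewer cells with a transcript and less of it per cell cannot be told apart.

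The promoters of 4 of the genes are shown because these genes took different courses: Tnf and Ltb are neighbours that moved differently, and Tnfrsf1b and Fas were the receptors with the largest rises among the 6 genes. The sequences are from RefSeq (GRCm38.p6), which listed 5 of the 6 genes in the table used. Each is written 5' to 3' on the strand of the gene and lies before the start site, at chr17:35202008-35202257 (minus strand) for Tnf, chr17:35194257-35194438 (plus strand) for Ltb, chr4:145246871-145247120 (minus strand) for Tnfrsf1b and chr19:34290409-34290658 (plus strand) for Fas. The stretch for Ltb stops where its annotated gene begins, short of the RefSeq start site, while the other 3 run up to that site. Capitals mark matches to the motifs searched.
Tnf promoter: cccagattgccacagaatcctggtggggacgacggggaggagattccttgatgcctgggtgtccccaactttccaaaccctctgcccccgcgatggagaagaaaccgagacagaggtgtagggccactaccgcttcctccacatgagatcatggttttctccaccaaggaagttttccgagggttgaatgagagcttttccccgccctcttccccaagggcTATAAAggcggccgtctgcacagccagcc
Ltb promoter: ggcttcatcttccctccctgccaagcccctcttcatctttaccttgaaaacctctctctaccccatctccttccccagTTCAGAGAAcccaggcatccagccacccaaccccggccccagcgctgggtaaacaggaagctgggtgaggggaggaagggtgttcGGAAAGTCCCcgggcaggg
Tnfrsf1b promoter: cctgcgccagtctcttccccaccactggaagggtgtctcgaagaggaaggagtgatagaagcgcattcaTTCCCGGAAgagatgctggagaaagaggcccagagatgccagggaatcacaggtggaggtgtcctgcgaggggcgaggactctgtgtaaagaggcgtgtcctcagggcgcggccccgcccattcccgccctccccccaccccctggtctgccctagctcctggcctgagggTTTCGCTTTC
Fas promoter: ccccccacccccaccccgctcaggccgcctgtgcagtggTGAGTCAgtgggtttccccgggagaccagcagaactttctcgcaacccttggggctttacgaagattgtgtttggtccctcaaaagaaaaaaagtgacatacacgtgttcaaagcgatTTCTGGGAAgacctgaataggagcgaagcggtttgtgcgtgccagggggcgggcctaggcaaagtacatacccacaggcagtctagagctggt

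Both strands of the 250 bases before each start site were searched for 5 motifs, and no matches overlapped. Positions are counted back from the RefSeq start site, which for Ltb lies beyond the end of the printed stretch. In Tnf the match was TATAAA, the TATA box, at 29 to 24 bases before the start, a motif present in 12.4% of 32851 windows of the same length. In Ltb there was a match to the kappa-B consensus, the motif of NF-kB, at 87 to 78 bases on the opposite strand (7.25% of windows). Ltb also had a match to TTCNNNGAA, the interferon gamma activated site bound by STAT factors, at 172 to 164 bases (7.02% of windows). That motif was matched in Tnfrsf1b at 181 to 173 bases, in Fas at 93 to 85 and in Tnfrsf1a at 244 to 236. The whole window searched for Tnfrsf1a, this match included, lies inside its annotated gene, which begins before the RefSeq start site. Tnfrsf1b held a match to the interferon-stimulated response element, GAAA repeated after a gap of 2 bases, at 10 to 1 bases on the opposite strand (2.98% of windows), and Fas held TGAGTCA, an AP-1 site, at 211 to 205 bases (4.46%). These are matches of letters in a short window, not sites shown to be bound.

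Tnf rose with polarization and was slightly higher again with iodide, while Ltb, its neighbour on the chromosome, was nearly level between Mock and M1 and fell to 0.523 times its M1 level with iodide. Tnfsf9 rose in M1. The gene of TNF receptor 2 rose 20.0-fold in M1 and stayed there in I, and Fas rose 7.90-fold. As deposited, the gene of TNF receptor 1 varied by less than 1.2-fold between any 2 groups. Of the 6 genes, 4 were called higher and 2 lower in M1 than in Mock, and all 6 had groups that did not overlap. Called means a Benjamini-Hochberg adjusted p under 0.05 in limma over all 11156 genes tested. In this comparison 85.8% of all genes were called, 30.5% higher and 55.3% lower, and in 86.4% the groups did not overlap. At least 2-fold rises were called in 3 of the 6 genes and in 6.78% of all genes. In I against M1, 3 of the 6 were called higher, 1 lower and 2 were not called, beside 24.9% higher, 39.3% lower and 64.2% called in all. None of the 6 was called with a rise or fall of at least 2-fold, beside 1.06% and 0.771% of all genes, and the groups did not overlap in 3 of the 6, beside 67.2%. In I against Mock, 4 were called higher and 1 lower, beside 28.2%, 58.6% and, in either direction, 86.8% of all genes, with at least 2-fold rises in 3 of the 6 (6.98%) and a 2-fold fall in 1 (18%). The groups did not overlap in 5 of the 6, beside 87.1%. The median log2 fold change of the 6 genes was 1.715 in M1 against Mock, 0.083 in I against M1 and 1.80 in I against Mock, beside -0.23, -0.065 and -0.30 over all genes tested. The M1 libraries enter both of the first comparisons, so their values are set side by side and not correlated.

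**Figure D1:**
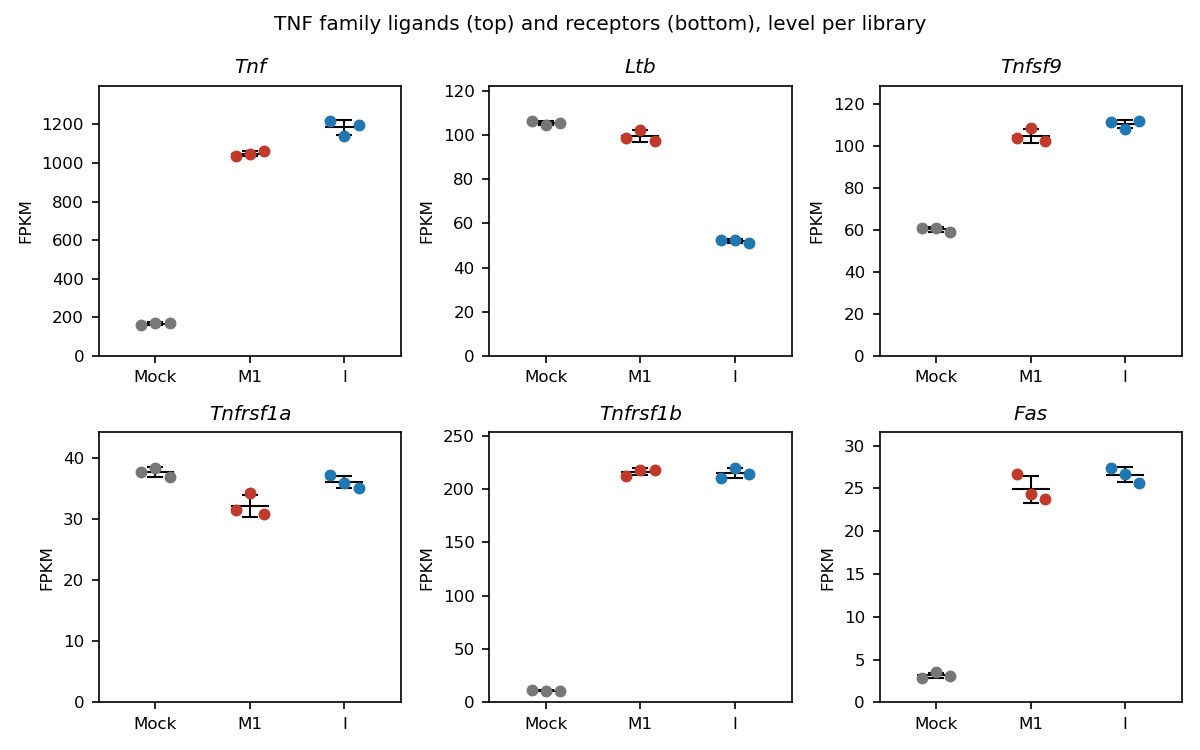
Level in FPKM (y axis, from 0) of the 3 ligands (top) and 3 receptors (bottom) in each of the 3 Mock, M1 and I libraries (points), with the mean and SD of the group (bars). Tnf, Tnfrsf1b and Fas sit far above Mock in M1 and I, Ltb is low only in I, and Tnfrsf1a stays between 30.8 and 38.5 FPKM throughout.

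Scaling bears on the small differences between M1 and Mock. As deposited, the median gene was lower in M1 by 0.23 on the log2 scale, with 3405 genes called higher and 6166 lower. With median-of-ratios (RLE) scaling the median was 0.008 and the split 4810 to 4749. For I against M1 the split was 2775 to 4382 as deposited and 3478 to 3540 with RLE scaling, and for I against Mock it was 3146 to 6534 and 4762 to 4785. Of the 6 genes, RLE scaling called 5 higher and 0 lower in M1 against Mock, 4 higher and 1 lower in I against M1, and 5 higher and 1 lower in I against Mock. Fold changes of under about 1.2-fold between M1 and Mock are therefore given, in place or in the last section, with values under scalings that changed their direction or call.

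Tnf (ENSMUSG00000024401.14, chromosome 17, 35199381 to 35202007, minus strand, GRCm38) encodes the founding ligand of the family. Its level was 161, 172 and 169.8 FPKM in the Mock libraries, 1035, 1048 and 1064 in M1, and 1217, 1140 and 1198 in I. Every M1 library lay above every Mock library, and every I library above every M1 library. The means were 168 ± 5.9, 1049 ± 15 and 1185 ± 40 FPKM (SD, n = 3), from 4914 to 42300 fragments per library. The 6.26-fold rise in M1 was a log2 fold change, on the scale of log2(FPKM + 1) used throughout, of 2.64 ± 0.033 (SE), with a limma adjusted p of 1.12e-13, and placed Tnf 91 from the top of 11156 genes. Iodide was accompanied by a further 1.13-fold rise, with a log2 fold change of 0.175 ± 0.033 (95% interval 0.101 to 0.249, limma adjusted p = 0.000895). In the order of levels Mock, M1 and I, each neighbouring pair thus differed beyond its spread, although the second step was small beside the first. Against Mock, the I libraries were 7.07-fold higher.

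Ltb (ENSMUSG00000024399.5, chromosome 17, 35194439 to 35196320, plus strand) encodes lymphotoxin beta. The Mock libraries held 106, 104 and 106 FPKM, the M1 libraries 98.6, 102 and 97.2, and the I libraries 52.3, 52.6 and 51.0. The I libraries stood far below all others, and the Mock and M1 libraries were close without overlapping. Means were 105 ± 0.94 in Mock, 99.4 ± 2.7 in M1 and 52.0 ± 0.85 in I (SD, n = 3), from 1466 to 4101 fragments. Between Mock and M1 the direction depended on the scaling: the log2 fold change was -0.084 ± 0.026 (limma adjusted p = 0.0107) as deposited but 0.215 with RLE, 0.221 with TMM and 0.09 with upper quartile scaling. With quantile scaling Ltb was still called lower in M1. In I the level was 0.523 times that of M1, a log2 fold change of -0.92 ± 0.026 (limma adjusted p = 7.62e-10), the 115th lowest of all genes tested. Against Mock the log2 fold change was -1.01 (limma adjusted p = 1.91e-11). A microRNA gene, Mir6973a, lies within Ltb on the same strand and was listed at 1.17 to 9.56 FPKM, so a few reads could have been split between them.

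Tnfsf9 (ENSMUSG00000035678.8, chromosome 17, 57105325 to 57107757, plus strand) encodes the 4-1BB ligand, a membrane protein of antigen-presenting cells. Its values were 61.1, 60.7 and 58.8 FPKM in Mock, 104, 109 and 102 in M1, and 111, 108 and 112 in I. M1 and I were both above Mock, and the lowest I library lay below the highest M1 library. From 60.2 ± 1.2 in Mock the mean reached 104.9 ± 3.2 in M1 and 110.4 ± 2.0 in I (SD, n = 3), from 1365 to 3061 fragments. The M1 rise of 1.74-fold had a log2 fold change of 0.79 ± 0.029 and a limma adjusted p of 3.55e-10. The I against M1 difference of 0.074 ± 0.029 (log2, limma adjusted p = 0.0435) was marginal. Its adjusted p lay between 0.0526 and 0.151 without M1 library 1 or 3, I library 1 or 3, or Mock library 1 or 2. It was 0.0594 with the 2 groups fitted alone and 0.0643 with the library number as a block. The lincRNA gene Gm11110 overlaps Tnfsf9 on the other strand and was listed at 4.18 to 4.68 FPKM in the Mock libraries, 6.85 to 7.22 in those of M1 and 7.54 to 7.58 in those of I. Whether the counting used strand is not given in the sources used here, so reads of the pair cannot be told apart.

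Tnfrsf1a (ENSMUSG00000030341.17, chromosome 6, 125349362 to 125362484, plus strand) encodes TNF receptor 1. It was present at 37.8, 38.5 and 36.9 FPKM in Mock, 31.5, 34.3 and 30.8 in M1, and 37.2, 35.9 and 35.2 in I. All M1 libraries were below all others, and the Mock and I libraries overlapped. The means of 37.7 ± 0.80, 32.2 ± 1.8 and 36.1 ± 1.0 FPKM (SD, n = 3) rested on 1419 to 2495 fragments. Against Mock, M1 gave a log2 fold change of -0.22 ± 0.04 (limma adjusted p = 0.000319) as deposited, -0.052 with upper quartile scaling, and 0.072 with RLE and 0.078 with TMM scaling, none of the last 3 called. With quantile scaling Tnfrsf1a was still called lower in M1. Its distance from the median gene was 0.010. I was 1.12-fold above M1, with a log2 fold change of 0.16 ± 0.04 (limma adjusted p = 0.00487). For I against Mock the value was -0.061 (95% interval -0.15 to 0.028, limma adjusted p = 0.175) as deposited, and it was called higher under RLE (0.306), TMM (0.316) and upper quartile (0.146) scaling. It was not called with quantile scaling.

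Tnfrsf1b (ENSMUSG00000028599.10, chromosome 4, 145213463 to 145246870, minus strand) encodes TNF receptor 2. The 3 Mock libraries held 11.3, 10.6 and 10.5 FPKM, the M1 libraries 212, 218 and 218, and the I libraries 210.5, 220 and 214. The M1 and I libraries were intermingled, and both groups stood far above Mock. Means were 10.8 ± 0.40, 216 ± 3.3 and 215 ± 4.9 FPKM (SD, n = 3), from 708 to 18188 fragments. The rise in M1 had a log2 fold change of 4.20 ± 0.03 (limma adjusted p = 2.35e-15), 27 from the top of all genes tested. I and M1 differed by -0.009 on the log2 scale (95% interval -0.075 to 0.057, limma adjusted p = 0.805). Quantile scaling gave 0.099 (limma adjusted p = 0.018) for the same comparison.

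Fas (ENSMUSG00000024778.13, chromosome 19, 34290666 to 34327772, plus strand) was the least abundant of the 6 genes. In Mock it was at 2.86, 3.51 and 3.10 FPKM, in M1 at 26.7, 24.4 and 23.7, and in I at 27.4, 26.7 and 25.7. Every polarized library was above every Mock library, with M1 and I overlapping. The means were 3.15 ± 0.33, 24.9 ± 1.6 and 26.6 ± 0.89 FPKM (SD, n = 3). Fragments numbered 126 to 1199, fewer than for the other genes, and the SE of its M1 fold change was the largest of the 6. M1 against Mock gave a log2 fold change of 2.64 ± 0.06 (limma adjusted p = 8.63e-12), 1 place above Tnf among all genes. For I against M1 it was 0.092 ± 0.06 (95% interval -0.041 to 0.225, limma adjusted p = 0.201), and it was called under RLE (0.165, adjusted p = 0.0311) and TMM scaling (0.169, adjusted p = 0.0293). Fas ligand is not analysed here.

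Ratios of 2 genes within a library do not depend on the scaling between libraries. The ratio of Tnfrsf1b to Tnfrsf1a was 0.287 ± 0.011 in Mock, 6.72 ± 0.36 in M1 and 5.95 ± 0.26 in I (SD, n = 3), so TNF receptor 1 transcripts were the more abundant per length in Mock and TNF receptor 2 transcripts in M1 and I. The ratio of Tnf to Ltb was 1.59 ± 0.069 in Mock, 10.6 ± 0.36 in M1 and 22.8 ± 1.0 in I. Tnf against its receptor gene Tnfrsf1a stood at 4.44 ± 0.18 in Mock, 32.6 ± 2.0 in M1 and 32.8 ± 1.2 in I. Both genes were slightly higher in I than in M1, and their ratio differed by 0.01 on the log2 scale (exact two-sided permutation p = 1.0). For the first 2 ratios all 3 groups were separate from each other. Each of their comparisons had an exact two-sided permutation p of 0.1, the smallest that 3 libraries against 3 allow, so no ratio could reach 0.05.

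**Figure D2:**
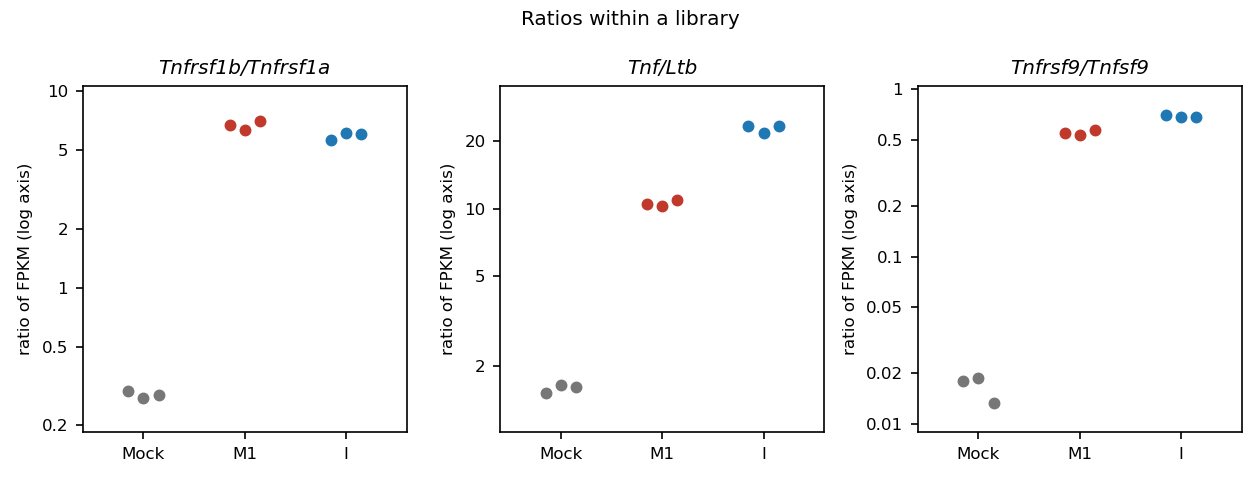
Ratio of FPKM within each library (y axis, log scale) for Tnfrsf1b to Tnfrsf1a, Tnf to Ltb and Tnfrsf9 to Tnfsf9 in the 3 Mock, M1 and I libraries (points). Each of the 3 ratios separates all 3 groups, and Tnf to Ltb rises from a mean of 1.59 through 10.6 to 22.8.

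The wider family was read from 18 ligand and 28 receptor genes, the 6 genes above included. No value in the tables is 0, and 9 ligand and 11 receptor genes have no row and are not analysed here. A gene silent in 1 group could be among them. Of the 9 ligands, 5 were called higher, 3 lower and 1 not in M1 against Mock (median log2 fold change 0.79), and 5, 2 and 2 in I against M1 (median 0.074). Under RLE scaling the first split was 7 higher and 2 lower. Of all genes as deposited, 30.5% were called higher and 55.3% lower in M1 against Mock. In I against M1 these shares were 24.9% and 39.3%. Tnfsf10 and Tnfsf13b passed the filter on low values only through the Mock libraries. Tnfsf14 passed through the I libraries, with M1 library 3 also just above the limit at 0.549 FPKM. The filter thus favoured differences of these genes from the group that admitted them. Lta and Tnfsf12 passed through the M1 and I libraries, as too few of their Mock libraries reached the limit. Their rises over Mock were therefore favoured as well, and the counts support nothing by themselves. With any Mock library left out, Tnfsf10 and Tnfsf13b no longer passed, and 1 ligand was called lower in M1.

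Tnfsf15, which encodes the ligand TL1A, went from 0.797 ± 0.092 FPKM in Mock to 7.66 ± 0.81 in M1 and 11.2 ± 0.4 in I (SD, n = 3). It was called in both steps, with log2 fold changes of 2.27 and 0.50 (limma adjusted p = 7.36e-11 and 8.62e-05). Tnfsf10, the gene of the death ligand TRAIL, was at 3.96 ± 0.10 FPKM in Mock, 0.296 ± 0.067 in M1, with 0.444 ± 0.032 in I. As the filter admitted Tnfsf10 by its Mock level, these values are a description with no test. Tnfsf14, which encodes LIGHT, a ligand of the lymphotoxin beta receptor, was at 0.184 ± 0.058 FPKM in Mock, 0.358 ± 0.18 in M1, with 1.51 ± 0.26 in I. Tnfsf14 was admitted by its I level, so its values too are a description, and its I libraries lay above all others.

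Lta, the partner of Ltb, was low throughout, at 0.461 ± 0.22 FPKM in Mock, 1.89 ± 0.38 in M1, with 2.00 ± 0.10 in I, from 5 to 62 fragments. As the filter admitted Lta by its M1 and I levels, its rise over Mock (log2 fold change 0.99) is a description with no test. The difference of Lta between I and M1 was not called (0.063, limma adjusted p = 0.66). Tnfsf12, the gene of the ligand TWEAK, rose from 0.414 ± 0.14 to 1.68 ± 0.082 FPKM in M1 and fell to 1.11 ± 0.094 in I. The rise of Tnfsf12 over Mock is likewise a description. Tnfsf13b, which encodes the B cell survival factor BAFF and was admitted by its Mock level, was at 0.675 ± 0.13, 0.231 ± 0.029 and 0.148 ± 0.057 FPKM in Mock, M1 and I.

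Of the 17 receptors in the tables, 12 were called higher, 3 lower and 2 not in M1 against Mock (median log2 fold change 0.59), and 5, 5 and 7 in I against M1 (median -0.042). With RLE scaling the first split was 14 higher and 1 lower, and the second 6 and 4. The shares over all genes are those given with the ligands. Tnfrsf13b passed the filter only through the M1 libraries, so the filter favoured its differences from M1 and its place in these counts supports nothing. Eda2r was below the limit in every Mock library and passed through M1 and I. The filter thus favoured its rise over Mock, and its place in the first count supports nothing either. The receptor with the largest rise in M1 was Tnfrsf9, the partner of Tnfsf9, an activation receptor known best from T cells. It went from 1.01 ± 0.19 FPKM in Mock to 57.6 ± 0.79 in M1 and 76.0 ± 1.9 in I, rises of 57.3-fold and 1.32-fold. The log2 fold changes were 4.87 ± 0.059 and 0.39 ± 0.059 (limma adjusted p = 8.68e-14 and 0.00017). Within a library, the ratio of Tnfrsf9 to Tnfsf9 was 0.0167 ± 0.0029 in Mock, 0.550 ± 0.020 in M1 and 0.688 ± 0.0093 in I (SD, n = 3), with groups that did not overlap (exact two-sided permutation p = 0.1 in each comparison).

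**Figure D3:**
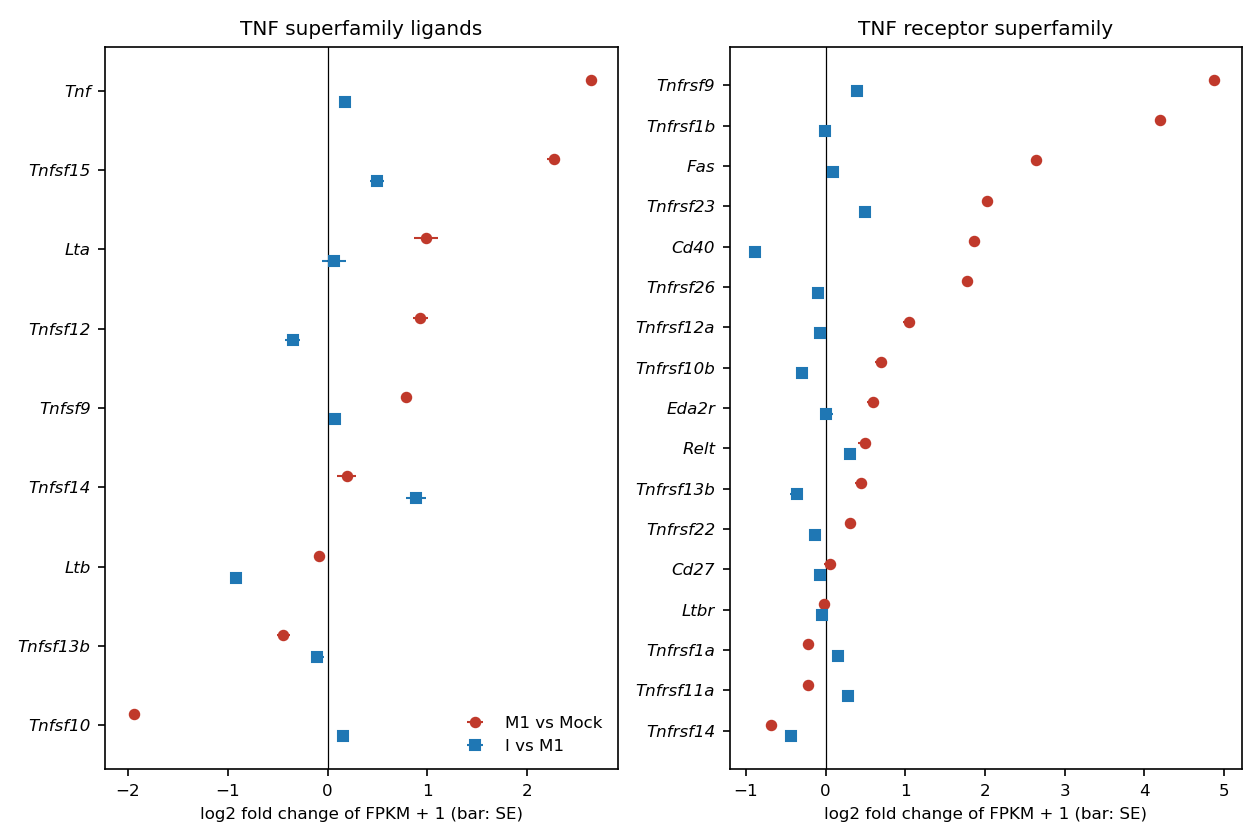
Log2 fold change of FPKM + 1 (x axis, bar for the SE) of the 9 ligands (left) and 17 receptors (right) in the tables, for M1 against Mock (circles) and I against M1 (squares). The highest M1 value is 4.87 for Tnfrsf9, and the lowest I against M1 values are those of Ltb and Cd40. Tnfsf10, Tnfsf13b, Tnfsf14 and Tnfrsf13b are shown without a test because the filter admitted them by 1 group. Lta, Tnfsf12 and Eda2r were admitted by M1 and I, so their M1 against Mock values are also shown without a test.

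Cd40, the receptor of a costimulatory signal from T cells, rose from 19.5 ± 0.15 FPKM in Mock to 73.7 ± 0.26 in M1 and was at 39.5 ± 1.2 in I (SD, n = 3). Its fall with iodide was of about the size seen for Ltb, with a log2 fold change of -0.88 ± 0.027 (limma adjusted p = 1.32e-09), but Cd40 stayed above Mock and Ltb went below it. Tnfrsf14, which encodes the receptor HVEM, fell in both steps, from 4.88 ± 0.32 to 2.64 ± 0.20 and 1.69 ± 0.15 FPKM (log2 fold changes -0.69 and -0.44). The lymphotoxin beta receptor gene Ltbr was at 19.8 ± 0.99, 19.5 ± 0.90 and 19.0 ± 1.4 FPKM and was called in neither step as deposited, though RLE scaling called it higher in M1 (0.271). Tnfrsf11a, the gene of the osteoclast receptor RANK, was at 10.5 ± 0.75, 8.79 ± 0.34 and 10.9 ± 0.17 FPKM. Its M1 value of -0.22 was called as deposited and was 0.049 and not called with RLE scaling, and its value of 0.275 in I against M1 was called (limma adjusted p = 0.000615).

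Tnfrsf12a, the gene of the TWEAK receptor, rose from 5.39 ± 0.27 to 12.3 ± 1.6 FPKM in M1 and was at 11.6 ± 0.52 in I, the latter step not called. Among the mouse genes related to the TRAIL receptors, Tnfrsf23 rose in both steps, from 5.98 ± 0.25 to 27.4 ± 0.93 and 39.1 ± 1.7 FPKM. Tnfrsf26 rose from 11.5 ± 0.84 to 41.7 ± 1.3 FPKM in M1 and was at 39.1 ± 0.75 in I, and Tnfrsf22 was at 3.86 ± 0.095, 5.02 ± 0.41 and 4.47 ± 0.21 FPKM. These 3 genes are close paralogs, and reads could have been split among them. The death receptor gene Tnfrsf10b went from 0.965 ± 0.049 to 2.17 ± 0.093 FPKM in M1 and 1.60 ± 0.23 in I, called higher and then lower. Relt rose in both steps, from 2.57 ± 0.41 to 3.995 ± 0.021 and 5.18 ± 0.42 FPKM. Eda2r, Tnfrsf13b and Cd27 stayed below 2 FPKM in all libraries. Eda2r was called higher in M1 and Cd27 in neither step, though RLE scaling called it higher in M1.

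Tnf and Ltb lie within the major histocompatibility complex, where Ltb, Tnf and Lta stand in a row. Ltb and Tnf are transcribed towards each other, with 3060 bases between their ends, and Lta ends 1157 bases from the start of Tnf. A chosen list of 12 genes, these 3 included, spans 137.5 kb and need not hold every gene of that stretch. Of the 12 listed, 7 were called higher, 4 lower and 1 not in M1 against Mock (median log2 fold change 0.40). In I against M1, 1 was called higher, 6 lower and 5 not (median -0.18), Tnf being the 1 of the list that rose. With RLE scaling the counts were 8 higher and 2 lower, and 1 higher and 5 lower. Lta is among the genes called higher in M1, although the filter favoured its rise. The shares over all genes as deposited were 30.5% higher and 55.3% lower, then 24.9% and 39.3%. The genes next to Ltb on the side away from Tnf were Lst1, a leukocyte transcript, and Aif1, which encodes the macrophage protein IBA1. Lst1 went from 25.0 ± 2.6 FPKM in Mock to 75.9 ± 6.9 in M1 and back to 25.8 ± 1.3 in I, with log2 fold changes of 1.57 and -1.52 (limma adjusted p = 4.91e-09 and 5.61e-08). Aif1 showed the same order at a lower level, with 2.54 ± 0.13, 9.38 ± 0.68 and 3.73 ± 0.31 FPKM (SD, n = 3).

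On the other side of Tnf, Lta has been given above, and Nfkbil1 rose from 14.2 ± 1.1 to 19.5 ± 1.7 FPKM in M1 and fell to 13.7 ± 0.74 in I. Nfkbil1 overlaps Atp6v1g2 in the annotation, so the 2 cannot be fully separated. Atp6v1g2 was at 1.33 ± 0.27, 1.17 ± 0.068 and 0.796 ± 0.081 FPKM and was called lower in I against M1, but not in M1 against Mock. The RNA helicase gene Ddx39b fell from 71.3 ± 2.5 to 39.1 ± 0.26 FPKM in M1 and was at 35.7 ± 0.83 in I. Among the more distant genes, Prrc2a fell from 75.7 ± 1.2 to 54.9 ± 1.2 FPKM and Csnk2b rose from 38.2 ± 0.91 to 53.3 ± 2.6, with neither called between I and M1. Bag6 was at 34.2 ± 0.96 and 29.5 ± 1.2 FPKM in Mock and M1, lower as deposited (log2 fold change -0.21) and slightly higher with RLE scaling (0.084). Apom was at 0.620 ± 0.11, 1.11 ± 0.39 and 0.771 ± 0.14 FPKM, and its M1 value (log2 fold change 0.36, limma adjusted p = 0.0147) was not called without Mock library 1 (adjusted p = 0.0571) or M1 library 3 (0.059).

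**Figure D4:**
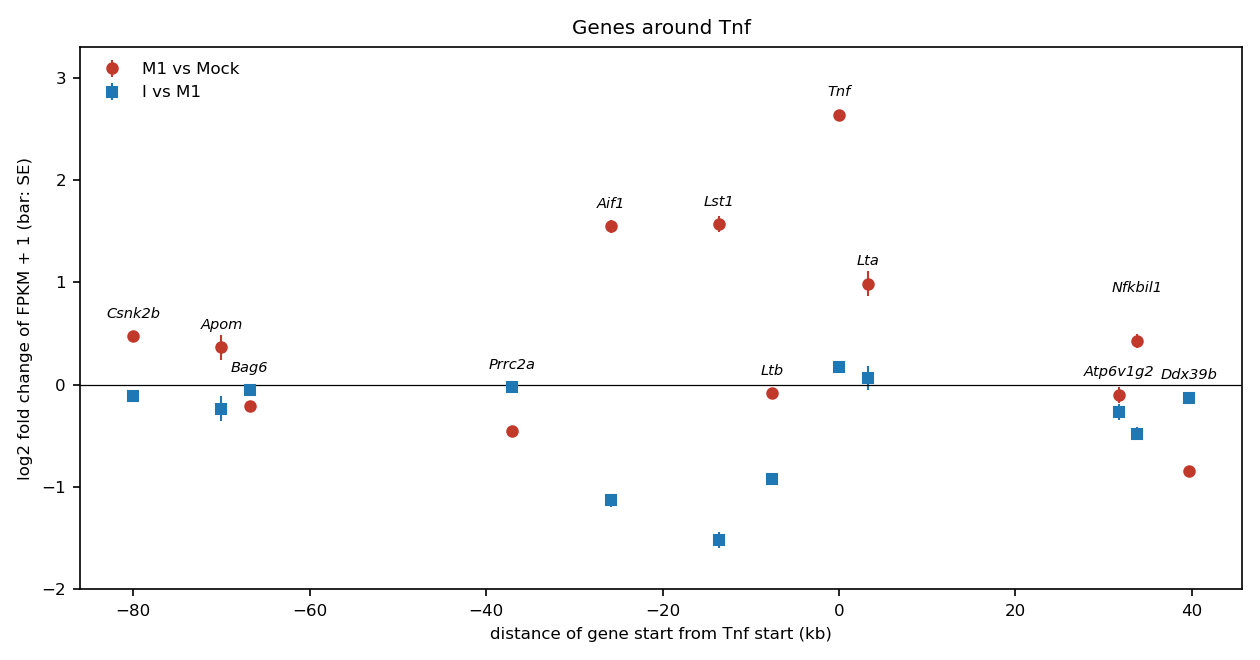
Log2 fold change of FPKM + 1 (y axis, bar for the SE) of the 12 listed genes against the distance of their start from the Tnf start in kb (x axis), for M1 against Mock (circles) and I against M1 (squares). Ltb, Lst1 and Aif1 have the lowest I against M1 values, while Tnf, at 0 kb, has the highest M1 value and a small positive iodide value. The M1 against Mock value of Lta is shown without a test.

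Downstream of the receptors, genes of the TNF receptor 1 signalling complex were called in both directions. Of 24 genes, 11 rose, 11 fell and 2 were not called in M1 against Mock (median log2 fold change 0.013), and 8, 5 and 11 in I against M1 (median 0.003). RLE scaling gave 13 higher and 10 lower, then 10 and 3. Beside this list and those below, 30.5% of all genes were called higher and 55.3% lower in M1 against Mock as deposited. In I against M1 these shares were 24.9% and 39.3%. The largest rises in M1 were in genes of inhibitors: Tnfaip3, encoding the ubiquitin-editing enzyme A20, went from 4.45 ± 0.24 to 14.1 ± 0.64 FPKM and Tnip1, encoding an A20 partner, from 31.7 ± 0.34 to 71.4 ± 2.5 (SD, n = 3). The largest falls were in the kinase gene Map3k5, from 8.23 ± 0.73 to 3.61 ± 0.27 FPKM, and in Rbck1, encoding the HOIL-1 subunit of the linear ubiquitin ligase, from 26.9 ± 0.39 to 14.4 ± 0.67. With iodide, Otulin, which encodes the enzyme that removes linear ubiquitin, rose from 35.4 ± 0.28 in M1 to 50.5 ± 1.4 FPKM in I, and Tab2, an adaptor of the kinase TAK1, from 16.1 ± 0.51 to 19.1 ± 0.13. Ikbke, an NF-kB and interferon pathway kinase, fell from 20.2 ± 0.24 to 13.9 ± 0.35 FPKM and Ikbkg, the NEMO subunit, from 7.83 ± 0.13 to 6.74 ± 0.21.

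In the death receptor pathway, which Fas and TNF receptor 1 share, 6 of 14 genes rose, 7 fell and 1 was not called in M1 against Mock (median log2 fold change -0.047), and 5, 4 and 5 in I against M1 (median 0.045). RLE scaling gave 8 higher and 4 lower in both comparisons. Casp6, an effector caspase, rose in both steps, from 2.16 ± 0.065 FPKM in Mock to 8.19 ± 0.42 in M1 and 17.9 ± 0.11 in I (log2 fold changes 1.54 and 1.04, limma adjusted p = 3.3e-11 and 9.04e-09). Cflar, encoding the caspase 8 inhibitor FLIP, rose from 21.1 ± 0.90 to 43.4 ± 1.2 FPKM in M1. The caspase inhibitor gene Xiap fell from 21.9 ± 1.1 to 9.99 ± 0.76 FPKM and Bid, which links death receptors to mitochondria, from 36.4 ± 1.1 to 21.6 ± 1.1. With iodide, the necroptosis kinase gene Ripk3 rose from 31.7 ± 0.92 to 44.7 ± 1.8 FPKM, whereas Faf1, a Fas-associated factor, fell from 22.1 ± 0.31 to 16.1 ± 0.31.

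The noncanonical NF-kB pathway and the TRAF adaptors carry signals from Tnfrsf1b, Cd40 and the lymphotoxin beta receptor. Of 10 genes, 6 rose, 2 fell and 2 were not called in M1 against Mock (median log2 fold change 0.26), and 2, 6 and 2 in I against M1 (median -0.13). RLE scaling gave 8 higher and 1 lower, then 3 and 4. Nfkb2, which encodes the p100 precursor, rose from 20.4 ± 0.38 to 31.3 ± 1.2 FPKM in M1 and fell in I to 17.0 ± 0.39 (log2 fold change from M1 -0.84, limma adjusted p = 9.26e-09). Its partner Relb fell with iodide from 6.52 ± 0.53 to 4.23 ± 0.32 FPKM. The lower level of Relb in M1 than in Mock (8.02 ± 0.096 FPKM, log2 fold change -0.26) was 0.001 with RLE scaling. Traf1 rose in M1 from 11.9 ± 0.42 to 29.3 ± 1.0 FPKM and Traf3 fell from 7.96 ± 0.22 to 5.25 ± 0.38. Traf6, the adaptor of Toll-like receptors and CD40, rose with iodide from 7.94 ± 0.18 to 11.9 ± 0.37 FPKM.

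**Figure D5:**
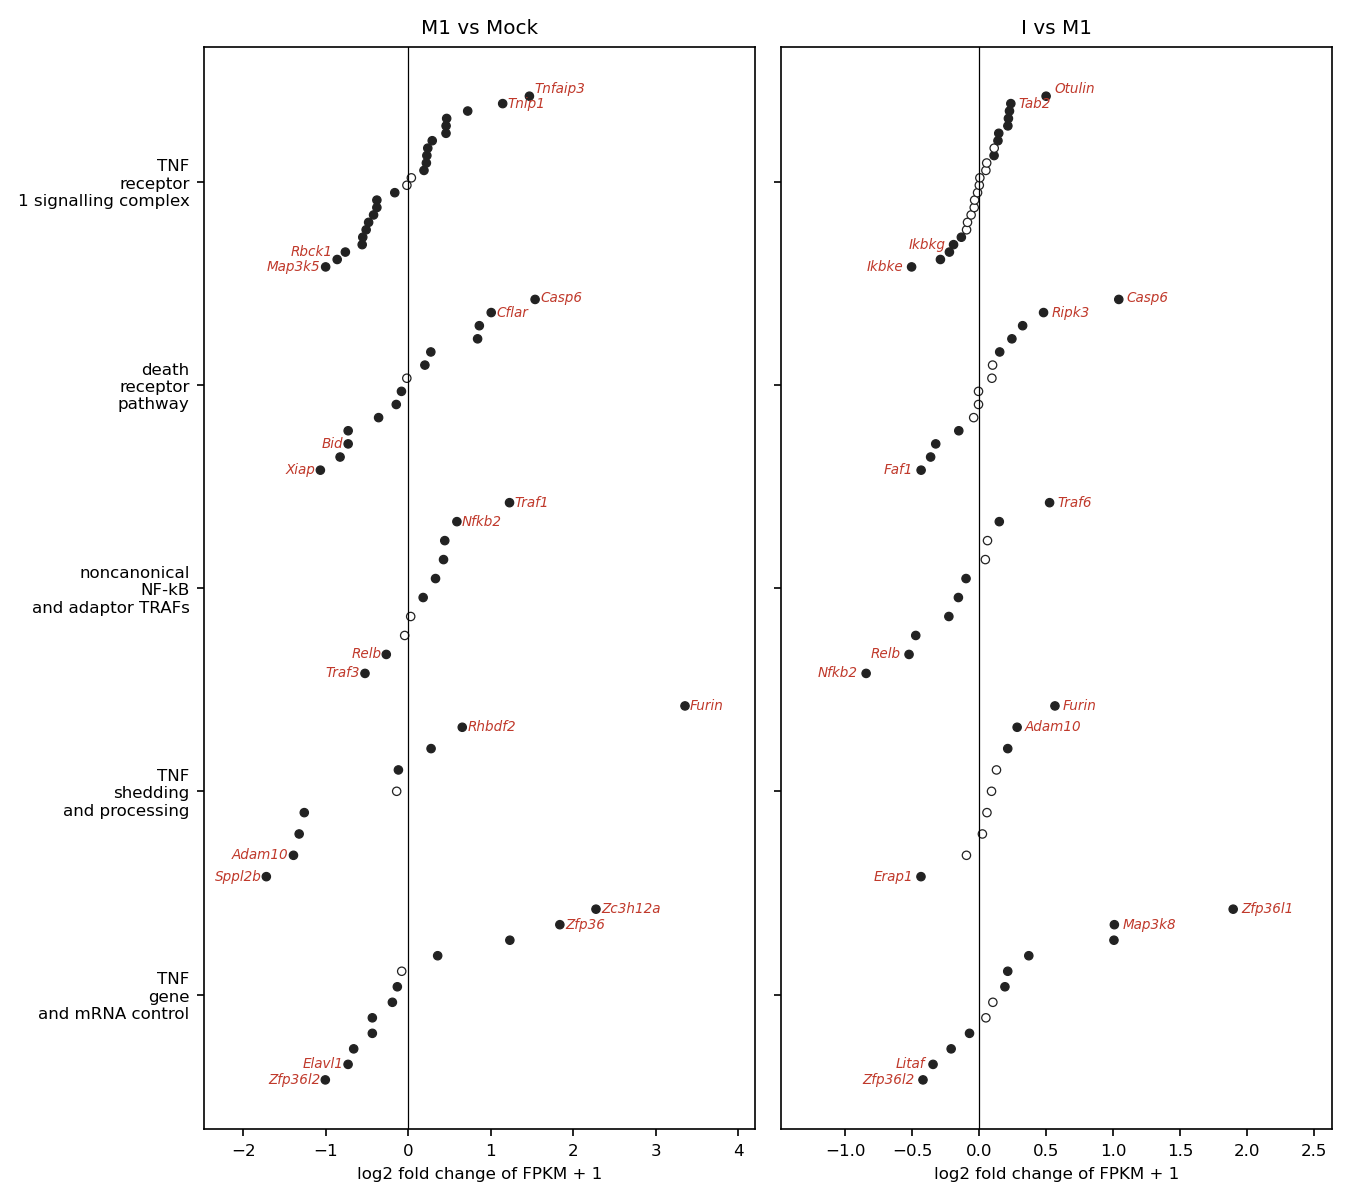
Log2 fold change of FPKM + 1 (x axis) of the genes of 5 pathway lists (rows), for M1 against Mock (left) and I against M1 (right), with called genes as filled points, genes not called as open points, and most of the largest rises and falls named. In each list genes lie on both sides of 0, and the points furthest from 0 are Furin in M1 against Mock and Zfp36l1 in I against M1.

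Shedding decides how much TNF leaves the cell surface. Of 9 shedding and processing genes, 3 rose, 5 fell and 1 was not called in M1 against Mock (median log2 fold change -0.14), and 3, 1 and 5 in I against M1 (median 0.092). RLE scaling gave 4 and 4, then 6 higher and 1 lower. Furin, the convertase that activates ADAM proteases, rose in both steps, from 7.73 ± 0.28 FPKM in Mock to 88.4 ± 3.0 in M1 and 131 ± 3.6 in I (log2 fold changes 3.36 and 0.565, limma adjusted p = 2.94e-14 and 2.35e-07). Rhbdf2, encoding the ADAM17 escort iRhom2, rose from 34.7 ± 0.46 to 55.4 ± 2.1 FPKM in M1. The protease gene Adam10 fell from 52.5 ± 1.9 to 19.4 ± 0.41 FPKM in M1 and rose to 23.9 ± 2.1 in I. Sppl2b, an intramembrane protease that cuts the TNF stub, fell from 7.42 ± 0.52 to 1.56 ± 0.12 FPKM. Adam17, the TNF sheddase itself, lay outside the rule for named genes and was added after its values were seen: it fell from 58.5 ± 1.2 to 22.9 ± 0.84 FPKM in M1 and was at 21.3 ± 1.0 in I (limma adjusted p = 0.0515 between them). Erap1, an aminopeptidase linked to shedding of TNF receptor 1, fell with iodide from 10.7 ± 0.58 to 7.66 ± 0.10 FPKM.

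The Tnf transcript is short-lived because AU-rich binding proteins of the ZFP36 family direct its decay. Of 12 genes of Tnf transcription and mRNA control, 4 rose, 7 fell and 1 was not called in M1 against Mock (median log2 fold change -0.16), and 6, 4 and 2 in I against M1 (median 0.147). RLE scaling gave 7 higher and 5 lower, then 7 and 3. Zfp36, the gene of tristetraprolin, rose from 35.8 ± 0.57 FPKM in Mock to 131 ± 1.6 in M1. In I it was at 263 ± 1.5 FPKM, a log2 fold change of 1.00 from M1 (limma adjusted p = 1.13e-10), a step outside the rule for named genes that was added after its values were seen. Its relative Zfp36l1 was at 28.7 ± 1.1 FPKM in Mock, 17.8 ± 0.35 in M1, with 68.8 ± 1.7 in I, and the iodide step of 1.89 on the log2 scale (limma adjusted p = 2.44e-11) was the largest in the 5 lists. Zfp36l2 fell in both steps, from 34.1 ± 0.38 to 16.5 ± 0.56 and 12.1 ± 0.60 FPKM. Zc3h12a, encoding the RNase regnase-1, rose from 7.32 ± 0.20 to 39.4 ± 1.8 FPKM in M1, and Elavl1, encoding the stabilizing protein HuR, fell from 12.9 ± 0.13 to 7.39 ± 0.13. With iodide, Map3k8, the kinase TPL2 of the TNF induction pathway, rose from 4.30 ± 0.29 to 9.66 ± 0.52 FPKM, and Litaf, named as an LPS-induced TNF factor, fell from 90.1 ± 2.1 to 70.7 ± 0.51.

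The genes whose pattern over the 9 libraries was most like each of the 6 were found by the root mean square difference of log2(FPKM + 1) after centring, among 7690 genes. For Tnf these were Atf3 (0.0376), Hcar2 (0.0653) and Lrrc25 (0.0756), and Atf3 went from 59.8 FPKM in Mock to 374 in M1 and 426 in I. For Fas they were Hcar2 (0.0732), Gm16712 (0.0786) and Atf3 (0.0939), so 2 of the 3 were shared with Tnf. For Ltb they included Ahsa1 (0.0364), which went from 25.5 to 24.4 and 12.2 FPKM, and Lpcat2 (0.082). For Tnfsf9 they were Dnm2 (0.0347), Prelid1 (0.0391) and Ctsc (0.0399), and for Tnfrsf1a they were Glyr1 (0.0407), Ppa1 (0.0423) and Dhx16 (0.0425). Tnfrsf1b had no neighbour as close: Rgcc differed by 0.132, Fam71f2 by 0.212 and Mxd1 by 0.222. The measure is not scaled by the size of the change, which among the 6 genes was largest for Tnfrsf1b. Rgcc went from 2.33 FPKM in Mock to 69.8 in M1 and 61.4 in I.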

How the data were processed

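The deposited values of each library were FPKM, a unit read from the values because no header names it. Per the submitters' processing notes the authors used fastp 0.20.1, HISAT2 2.2.1 and featureCounts 2.0.1 with GRCm38; settings, annotation and strand use are not given there or in the labels. FPKM multiplied by GENCODE vM21 exon length gave whole fragments (within 0.05) for 98.4% to 98.6% of values, which set the library totals.

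Rows with at least 0.5 FPKM in at least 3 libraries were tested (11156 kept, 1318 removed). All 6 genes passed in all 9 libraries. limma 3.58.1 (R 4.3.3) was fitted to log2(FPKM + 1), with 1 term for each group and an intensity trend, over the 9 libraries together. This scale understates changes of low genes. Fold values without log2 are ratios of mean FPKM.

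The genes and lists were chosen with earlier results of these data known. The text names the 6 genes, all genes of the ligand, receptor and locus lists, and the 3 most similar genes of each of the 6. From each pathway list it takes up to 2 called rises and 2 falls per comparison, with groups that do not overlap and at least 5 FPKM in the higher group. A few genes that the rule takes are not reported here. Pseudocount, filter, scaling, variance model, samples in the fit and left-out libraries were varied. A limma-voom fit of the recovered fragments was added after seeing the data. The model was tested on simulated data.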

Additional observations from a re-analysis of the deposited data

How the results depend on the processing

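Of 378 values for the 6 genes under 21 alternatives, 357 kept their direction and their side of the threshold. The exceptions came from scaling, for small differences, and from Tnfsf9. For M1 against Mock, Ltb was 0.215 (RLE), 0.221 (TMM) and 0.09 (upper quartile), and Tnfrsf1a was 0.072, 0.078 and -0.052. For I against Mock, Tnfrsf1a was 0.306, 0.316 and 0.146, and the genes called higher numbered 4762 (RLE) and 4804 (TMM) against 3146 as deposited. Quantile scaling left the calls of Ltb and Tnfrsf1a as deposited. For I against M1, Fas was 0.165 (RLE) and 0.169 (TMM), and Tnfrsf1b was 0.099 with quantile scaling. Other signs that changed in M1 against Mock were those of Ltbr (0.271, 0.277 and 0.151 with RLE, TMM and upper quartile scaling), Tnfrsf11a (0.049, 0.055 and, with quantile scaling, 0.026), Bag6 (0.084 and 0.09 with RLE and TMM), Relb (0.001, 0.007 and, with quantile scaling, 0.037) and Atp6v1g2 (0.23 with quantile scaling). In I against M1 the sign of Prrc2a changed (0.083 with quantile scaling). These scalings centre the libraries differently by construction. For Tnfsf9 in I against M1 the log2 value was 0.074 with only the 2 groups compared and without the intensity trend, and 0.057 to 0.099 with 1 library left out; the cause was not tested. Same-numbered libraries did not deviate together (r from -0.115 to 0.047 over 9 pairs), and pairs with unlike numbers reached 0.119. No pairing by number was thus seen, although a weak pairing or one limited to some genes could be missed. With the replicate block Tnfsf9 kept 0.074 with an adjusted p of 0.0643, no other call of the 6 genes changed, and 2713 genes were called higher and 4319 lower in I against M1. The count models listed as alternatives were not run, since the values are FPKM. Depth limits the genes under about 1 FPKM: Lta had 5 to 62 fragments.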
